A study of Mus musculus with 12 samples.

Results

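The small RNAs of wild type mouse oocytes are described here from the 4 libraries, of 12 in the series, whose genotype label is wild type with wild type ancestors. The other 8 libraries came from Khdc3-null mice and from wild type mice with Khdc3-null grandfathers, and they do not enter any value below. Oocytes were picked by hand from ovaries that had received no stimulation, and RNA from them was taken through a kit for samples of few cells and a small RNA library protocol in which adapters are ligated to the RNA. The labels give no strain, age, oocyte stage, number of oocytes per library or animal of origin, so the spread between libraries may be technical in whole or in part. All 2030 features of the deposited table were used: 1123 under miRNA names, 435 tRNA loci, 5 rRNA forms, and piRNA loci of which 250 bear the name of a gene and 217 that of a chromosome band.

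Levels are in RPM, the reads of a feature with every library scaled to the same number of mapped reads, and they are per feature, not per base. The libraries, called library 1 to library 4, held 6913111, 6496083, 4048534 and 7207786 mapped reads, and listed features took between 88.9% and 92.0% of them. With 0 reads, a level of up to 0.434, 0.462, 0.741 and 0.416 RPM is allowed, which covers counting error only because the reads carry no molecular identifiers. Pairs of libraries differed by 19.4 to 49.9 units of chi-square per feature, so none is a second deposit of another. No mRNA is listed, so the oocyte label was not checked against mRNA markers, and fewer cells of a type and less RNA per cell cannot be told apart.

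A miRNA is cut from a hairpin by Drosha with Dgcr8 and then by Dicer, and it finds its targets mainly through the seed, bases 2 to 8 of the mature RNA. piRNAs are Dicer-independent, bind PIWI proteins and silence transposons in the germ line. In mouse oocytes miRNAs are known to repress targets weakly, Dicer-dependent endogenous siRNAs carry essential functions, and loss of PIWI proteins leaves females fertile. Fragments of tRNA and rRNA in small RNA libraries can be cleavage products or breakdown of the parent molecules.

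The mature miRNAs of the hairpins on which the results turn are printed with the seed in capitals, from RefSeq on GRCm38.p6. They are shown to make visible which abundant hairpins share a seed. The deposited values are per hairpin, so the reads of the 5p and 3p arms are not separated.
mmu-let-7a-5p: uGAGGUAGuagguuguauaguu
mmu-let-7b-5p: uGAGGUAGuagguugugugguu
mmu-let-7c-5p: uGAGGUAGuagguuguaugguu
mmu-let-7f-5p: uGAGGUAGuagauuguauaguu
mmu-let-7d-5p: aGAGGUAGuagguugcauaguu
mmu-miR-16-5p: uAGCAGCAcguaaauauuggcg
mmu-miR-15b-5p: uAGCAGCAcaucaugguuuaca
mmu-miR-322-5p: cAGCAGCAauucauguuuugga
mmu-miR-10b-5p: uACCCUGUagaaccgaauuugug
mmu-miR-10a-5p: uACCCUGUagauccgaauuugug
mmu-miR-99a-5p: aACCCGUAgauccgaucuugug
mmu-miR-26a-5p: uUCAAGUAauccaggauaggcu
mmu-miR-23a-3p: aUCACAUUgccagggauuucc
mmu-miR-31-5p: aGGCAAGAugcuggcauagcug
mmu-miR-34b-5p: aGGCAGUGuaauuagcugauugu
mmu-miR-3081-5p: gACUGGAGcuuggagcggugagc
mmu-miR-3081-3p: uUGCGCUCcgaucucugagcugg
mmu-miR-7665-3p: aGCCAGGUcccuguccccuaca
mmu-miR-713: uGCACUGAaggcacacagc

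The class make-up of the 4 libraries was close, and rRNA fragments took the largest share in each. Their share of the listed reads was 56.0%, 56.2%, 55.6% and 57.0% in libraries 1 to 4. Among reads outside rRNA, piRNA loci together held 45.1% ± 0.765 (SD, n = 4), miRNA features 37.5% ± 1.08 and tRNA loci 17.5% ± 1.28. The order of these 3 classes was the same in all 4 libraries, but that of the first 2 rested on how piRNA loci were counted. Many are listed in several near-equal forms, and with each piRNA name counted once, at its highest form, a choice made after seeing the data, piRNA summed to 115974, 116951, 123062 and 112886 RPM and miRNA to 140597, 151206, 156775 and 146842 RPM. The miRNA sum was then the higher in every library. It still counts every listed miRNA feature, copies included, so these sums follow unlike rules. Within the piRNA loci, those named after a gene held 72.9% ± 0.488 of the reads. The tRNA share moved most between libraries, with a coefficient of variation (CV, the SD over the mean) of 6.67%, against 3.25% for miRNA and 1.11% for rRNA. It was highest in library 1 at 8.21% and lowest in library 3 at 6.99%.

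**Figure D1:**
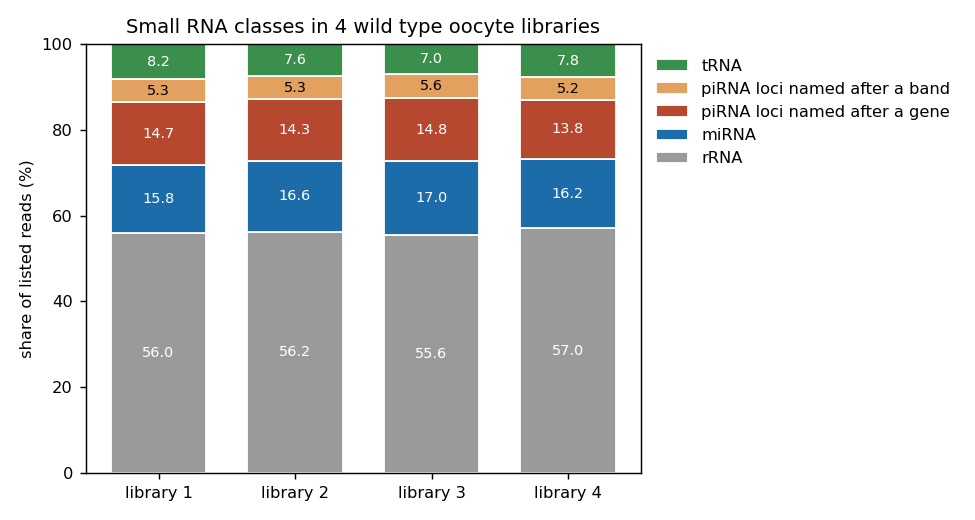
Share of listed reads (%) taken by each small RNA class in each of the 4 wild type libraries, as stacked bars with the value in each segment. The rRNA segment lies between 55.6% and 57.0%, and the tRNA segment between 6.99% and 8.21%.

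Most listed features were present, and a few carried much of each class. At least 10 reads in every library were found for 900 of 1123 miRNA features, 241 of 250 gene-named piRNA loci, 92.6% of the 217 band-named loci, 332 of 435 tRNA loci and all 5 rRNA forms. In all 4 libraries, 40 miRNA features and 1 tRNA locus had 0 reads. The most concentrated class after rRNA was tRNA, where 6 loci held 50% of the reads and the 10 most abundant held 56.4% ± 4.36 (SD, n = 4). For miRNA features 35 were needed to reach 50%, and the 10 most abundant held 24.0% ± 1.18. Gene-named piRNA loci needed 23 and band-named loci 29, with 31.6% ± 0.874 and 24.4% ± 0.342 in the 10 most abundant. The tail was longest for miRNA, where 285 features were needed to reach 90% of the reads. The median miRNA feature stood at 21.2 RPM, the median gene-named piRNA locus at 219 RPM, the median band-named locus at 106 RPM and the median tRNA locus at 12.4 RPM. These levels are per locus, and piRNA loci are long transcription units while hairpins and tRNAs are short.

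**Figure D2:**
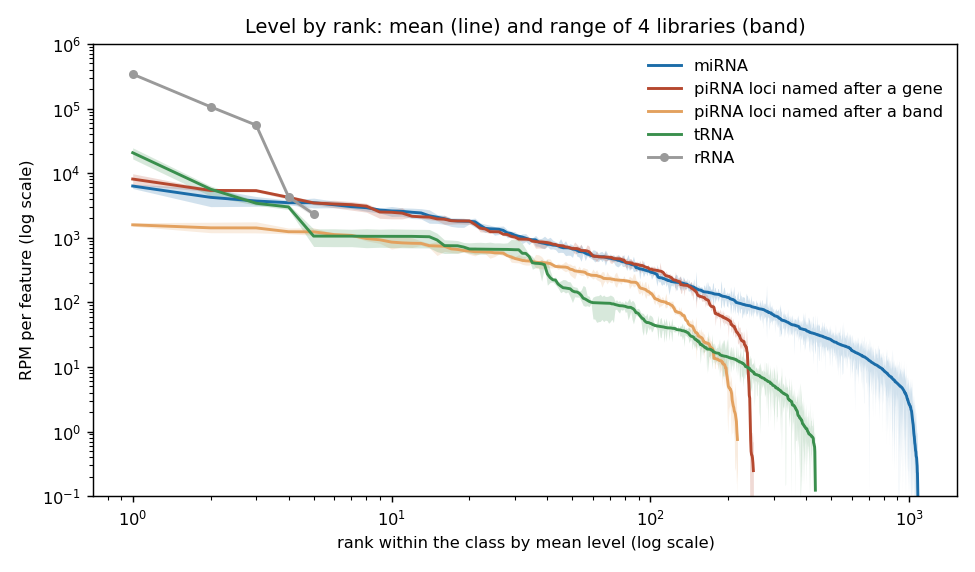
Level of every feature (RPM, log scale) against its rank within its class (log scale), as the mean of 4 libraries (line) with the range over libraries (band, drawn down to 0.1 RPM). The miRNA and gene-named piRNA curves run close together from about the fifth rank on before the piRNA curve drops, and the tRNA curve has a step of loci at about 1050 RPM.

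The most abundant miRNA features were a mixture of conserved families and hairpins with high registry numbers. Mir3081, in an intron of Boc, a cell surface co-receptor of hedgehog signalling, at chr16:44558046-44558129 (minus strand), stood at 5784, 6752, 6322 and 6428 RPM. It ranked first in each library and held 4.25% ± 0.207 (SD, n = 4) of the miRNA reads. Mir10b, in the Hoxd cluster at chr2:74726070-74726137, followed with 3815, 4223, 5812 and 3032 RPM. Its CV of 27.7% was the widest of the 10 most abundant, and library 3 was the highest and library 4 the lowest. Mirlet7c-1 had 3067, 3874, 4343 and 3541 RPM, with library 1 lowest and library 3 highest. Mir7665, in an intron of Mapkbp1, had 3482, 3838, 3387 and 3238 RPM. Mirlet7c-2 lies in an exon of the noncoding transcript Lncppara and had 2892, 3602, 4108 and 3335 RPM. The means of these last 3 were 3706, 3486 and 3484 RPM, and their ranges overlapped. Mirlet7c-1 was above Mirlet7c-2 in each library, while Mir7665 was above both in library 1 and below both in libraries 3 and 4.

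Of the other 5 of the first 10, Mir7220 lies in an intron of Camk2a, a calcium-dependent kinase gene, and had 3691, 3005, 3354 and 2920 RPM. Mir143, known from smooth muscle and stroma, had 2898, 2907, 3483 and 2838 RPM, with library 3 apart from the other 3. Mir31, an exonic hairpin of a noncoding transcript, had 3108, 2993, 3010 and 2571 RPM. Mir713, which no gene considered here as a host holds on its strand, had 2875, 2777, 2415 and 2692 RPM. Mir322, of the X-linked cluster with Mir503 and Mir351, had 2334, 2886, 3048 and 2144 RPM. The first 10 of each library had 7 features in common and 13 in all. Ranked by RPM per base of hairpin, 8 of these 10 stayed among the first 10, and Mir3081 was again first at 75.3 RPM per base, ahead of Mir10b at 62.1. Hairpin lengths ran from 39 to 139 bases, with a median of 80.

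The let-7 family, which restrains growth and pluripotency genes such as Lin28a and Hmga2, was the largest family examined. Its 14 hairpins summed to 16829, 20793, 22959 and 21222 RPM, or 13.7% ± 1.22 (SD, n = 4) of all miRNA reads. All 14 reached 10 RPM and 12 reached 100 RPM. The copies of let-7a stood at 1848 RPM for Mirlet7a-2 and 1819 RPM for Mirlet7a-1, Mirlet7b at 2562 and Mirlet7f-2 at 2083, while Mir98, a divergent member, stood at 61.7 and Mirlet7j at 26.7. Library 1 was the lowest for 12 of the 14 hairpins, while over all miRNA features of at least 10 RPM it was the lowest for 234 of 765. Of the hairpins with a RefSeq sequence, 12 carry the seed GAGGUAG on an annotated arm and summed to 18483 ± 2338 RPM. One of them, Mir1961, is not counted in the family and stood at 25.5 RPM. The sum leaves out Mirlet7a-2, Mirlet7j and Mirlet7k, for which no 5p arm was matched.

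Other families differed in how many of their hairpins carried the reads. The miR-15/16 family, known to restrain the cell cycle and Bcl2, summed to 8713 ± 1016 RPM over 7 hairpins. Its most abundant member was Mir322, with 29.9% of the sum. Mir16-2, in an intron of the condensin gene Smc4, stood at 2479 RPM and Mir16-1, in the noncoding transcript Dleu2, at 2424 RPM, while the neighbour of the latter, Mir15a, stood at 25.5 RPM. The miR-26 hairpins, each in an intron of a gene of the Ctdsp phosphatase family, summed to 3068 ± 305 RPM. Library 1 was lowest for all 3, and for 234 of 765 miRNA features of at least 10 RPM. In the miR-23/27/24 clusters Mir23a stood at 1972 RPM and Mir23b at 1769, and Mir27b at 233 and Mir27a at 177. Mir10b and Mir10a, with the seed ACCCUGU, summed to 4939 ± 1335 RPM, and Mir99a and Mir100, with the seed ACCCGUA, to 2702 ± 535 RPM, with library 3 highest for both sums. Mir99b, which was not matched, is not in the second sum and stood at 202 RPM.

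Further families summed to lower levels. The 6 miR-30 hairpins, widely expressed in epithelia and heart, summed to 280, 395, 292 and 389 RPM, with no member at a mean of 100 RPM. The miR-29 family, known to repress collagen genes and DNA methyltransferases, summed to 358 ± 31.6 RPM, of which Mir29b-2 alone held 80.7%. The miR-148 and miR-152 family summed to 394 ± 32.9 RPM. The miR-103 and miR-107 hairpins lie in introns of pantothenate kinase genes and summed to 386 ± 28.4 RPM. The miR-17-92 cluster and its paralogs, which promote proliferation, summed to 1103 ± 31.0 RPM over 15 hairpins. Mir106b, in an intron of the replication helicase gene Mcm7, held 49.9% of that sum. The miR-290 cluster, which is switched on in the early embryo, summed to 179 ± 23.1 RPM over 9 hairpins, with Mir291a highest at 52.4 RPM. The related miR-302 and miR-367 cluster summed to 111, 79.4, 86.9 and 56.2 RPM. Library 4 was lowest for all 5 of its hairpins, and for 166 of 765 miRNA features of at least 10 RPM.

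In the imprinted Dlk1-Dio3 region the miRNAs are expressed from the maternal chromosome. Its 55 hairpins in 3 groups of neighbours at chr12:109563692-109747960 (plus strand) summed to 2592, 2649, 2630 and 2661 RPM. The 46 of them in the list used for the family sums came to 2079, 2165, 2145 and 2050 RPM. The CV of the sum was 1.15% over the 55 and 2.58% over the 46, while the median CV of the single hairpins with reads was 37.2% over the 55. Mir341 led with 351, 553, 352 and 357 RPM, and library 2 stood apart from the other 3. Mir1188, outside the list, followed with 218, 188, 172 and 247 RPM. Of the 55 hairpins 38 reached 10 RPM, 7 reached 100 RPM and Mir544 had 0 reads in every library. The list of X-linked hairpins known from gonads summed to 1036 ± 102 RPM over 21 hairpins, led by Mir741 at 242 RPM. Of these, 19 neighbours summed to 879 RPM, and Mir547 with Mir201, which lie apart from them, to 157 RPM.

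**Figure D3:**
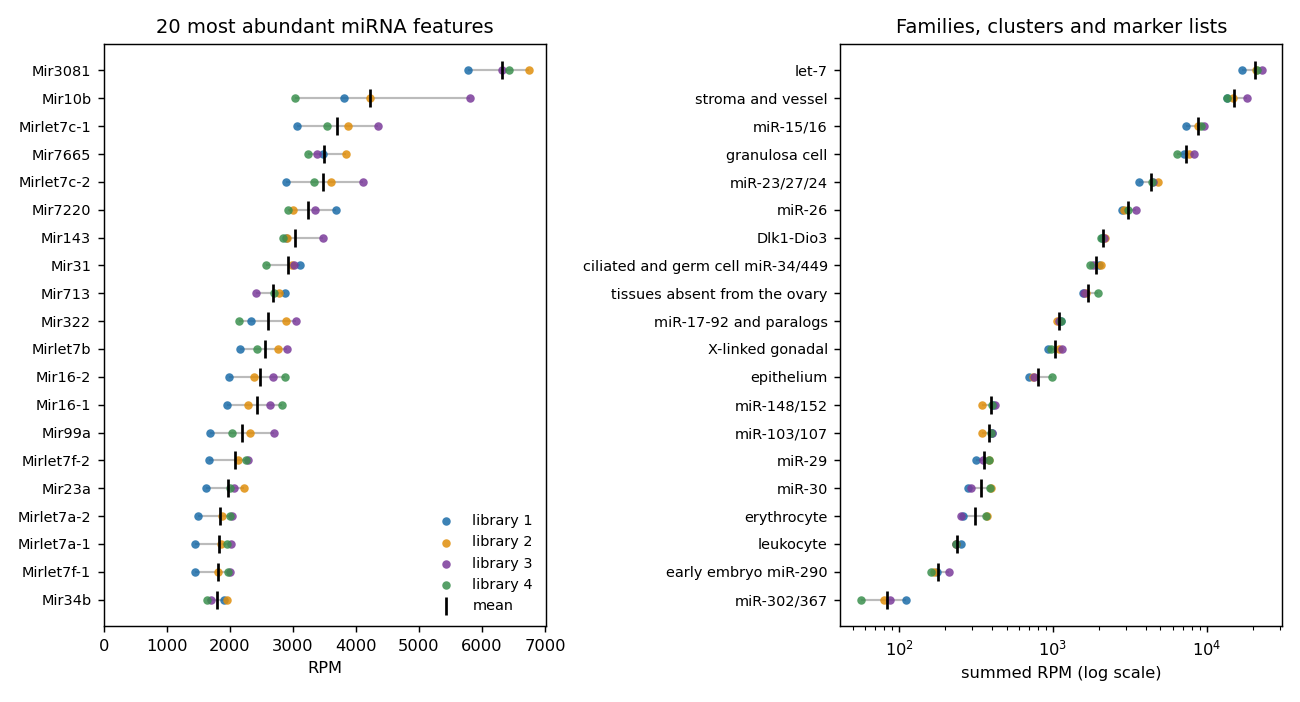
Left, RPM of the 20 most abundant miRNA features in each library (coloured points) with the mean (black bar). Right, summed RPM (log scale) of each family, cluster and marker list. Mir3081 is first in all 4 libraries, and among the lists the let-7 sum is the highest and the miR-302 and miR-367 sum the lowest.

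Many neighbouring hairpins differed in level, and some did not. Hairpins on the same strand with starts within 10000 bases of the next formed 77 clusters of 307 hairpins, which held 41.7% of the miRNA reads. In 38 clusters the most abundant hairpin reached 100 RPM. Of these, 26 were pairs, and the higher hairpin held over 90% of the reads in 13 pairs and under 75% in 4. In the other 12, of 3 or more hairpins, the most abundant held over 50% in 6 and over 90% in 0. Mir34b and Mir34c are neighbours at chr9:51103034-51103645 (minus strand), known from germ cells and ciliated cells. Mir34b stood at 1899, 1955, 1703 and 1635 RPM and Mir34c at 18.4, 20.9, 21.0 and 25.4 RPM. The muscle miRNA gene Mir133b stood at 731, 738, 743 and 967 RPM, while its neighbour Mir206 stood at 4.48, 3.23, 0.247 and 3.33 RPM. In contrast the cluster of Mirlet7a-1, Mirlet7f-1 and Mirlet7d had means of 1819, 1807 and 1399 RPM, and Mir214 and Mir199a-2 stood at 515 and 508 RPM.

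Hairpins that encode the same mature miRNA were compared, because a mature read fits each of them. The hairpins of the miR-29b pair are shown with the shared mature sequence in capitals, from RefSeq on GRCm38.p6, to make visible how much sequence differs around it.
Mir29b-1 hairpin: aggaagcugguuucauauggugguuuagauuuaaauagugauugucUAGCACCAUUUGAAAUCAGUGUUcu
Mir29b-2 hairpin: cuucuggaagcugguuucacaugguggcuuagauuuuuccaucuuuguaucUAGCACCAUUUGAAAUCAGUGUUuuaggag
Mir29b-2, at chr1:195037040-195037120, stood at 245, 328, 292 and 292 RPM, and Mir29b-1, at chr6:31063023-31063093, at 11.6, 14.5, 5.19 and 6.52 RPM. The groups of values did not overlap and the ratio of means was 30.7. Of 36 such pairs, 30 had a lower member of at least 5 RPM. Of these 30, 16 differed by less than 1.5 times, 11 by more than 2 times and 4 by more than 5 times. Near-equal pairs included Mir16-2 and Mir16-1 with a ratio of 1.02, Mirlet7c-1 and Mirlet7c-2 with 1.06 and Mir26a-1 and Mir26a-2 with 1.06. Wide ratios were also found for Mir219a-1 and Mir219a-2, at 930 and 22.6 RPM, and for Mir196a-2 and Mir196a-1, at 692 and 28.6 RPM. How reads that align to several loci were counted is not given in the sources used here. Of 918 hairpins with a RefSeq sequence, 129 share a stretch of 18 bases with another hairpin, and these held 30.8% ± 1.75 (SD, n = 4) of the reads of the 918.

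Hairpins that overlap on opposite strands also differed in level. There were 23 such pairs, and 17 differed by more than 2 times. Mir451a, the erythroid miRNA that is made without Dicer, had 1.45, 13.7, 5.19 and 19.4 RPM, while Mir451b, on the other strand of the same bases at chr11:78073170-78073241, had 172, 268, 167 and 263 RPM. Mir3107 stood at 298, 315, 308 and 300 RPM, and its partner Mir486, in an intron of the ankyrin gene Ank1, at 82.9, 87.0, 81.8 and 82.0 RPM. Mir126a, an endothelial miRNA, was the higher of its pair at 579 RPM, with Mir126b at 100 RPM. The sources used here do not say whether counting used strand.

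**Figure D4:**
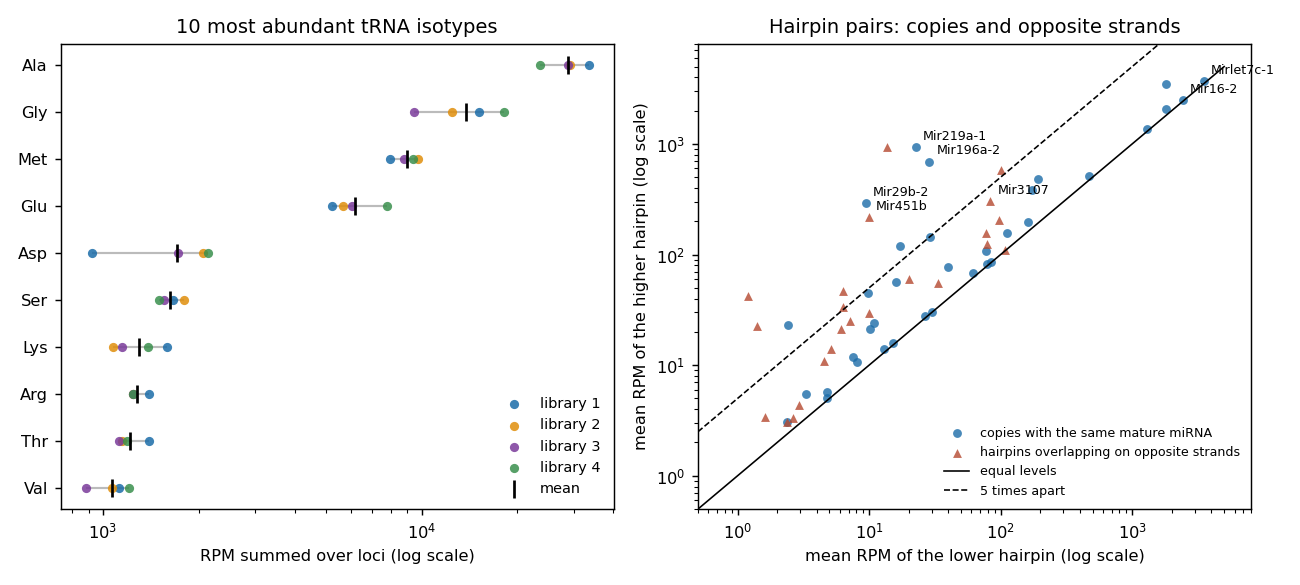
Left, RPM summed over the loci of each of the 10 most abundant tRNA isotypes (log scale) by library (points) with the mean (black bar). Right, mean RPM of the higher against the lower hairpin (log scales) for 36 pairs with the same mature miRNA (circles) and 23 pairs on opposite strands (triangles), with lines of equal levels and of levels 5 times apart. Mir16-2 and Mirlet7c-1 lie at the line of equal levels, and Mir219a-1, Mir196a-2, Mir29b-2 and Mir451b lie beyond the line of 5 times.

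Hairpins with high registry numbers, most of them catalogued from deep sequencing, held a smaller part of the reads than of the features. The 451 hairpins numbered 5000 or above, of 1123 miRNA features, held 24.5% ± 1.15 (SD, n = 4) of the miRNA reads and 10 of the 50 highest ranks. The 493 let-7 hairpins and those numbered below 1000 held 61.0% ± 1.76 and 36 of the 50 highest ranks. The median level was 17.4 RPM in the first set and 22.9 RPM in the second. The median GC content was 54.7% in the first set and 47.5% in the second, over the hairpins with a sequence. The bases CAG stood at the 3′ end of 156 of 394 hairpins numbered 5000 or above (39.6%) and of 9 of 383 hairpins of the second set (2.35%), and of 176 of all 918 (19.2%). An intron also ends in AG, and mirtrons are hairpins that span a whole short intron. The most abundant examples are shown with CAG in capitals, from RefSeq on GRCm38.p6.
Mir7047 hairpin: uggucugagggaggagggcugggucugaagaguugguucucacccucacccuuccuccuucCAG
Mir6978 hairpin: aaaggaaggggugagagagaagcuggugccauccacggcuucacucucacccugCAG
Mir7047 stood at 998, 1125, 1334 and 1316 RPM and Mir6978 at 1028, 1222, 1262 and 1133 RPM.

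The bases GUUCGANUC, a form of the conserved T-loop stretch of tRNAs in which N is any base, were searched on the given strand and occur in 1 of 918 hairpins (0.109%). That hairpin is Mir5100, shown with the stretch in capitals.
Mir5100 hairpin: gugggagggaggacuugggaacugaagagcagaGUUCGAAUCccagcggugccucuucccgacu
Mir5100 stood at 1005, 1238, 1077 and 1040 RPM and ranked 30 among miRNA features. By position, 1106 miRNA features were placed in GENCODE M21 on mm10. Hairpins in introns of coding genes held 43.5% ± 0.444 (SD, n = 4) of the miRNA reads, and those in exons of coding genes 7.24% ± 0.173. Those in exons of noncoding transcripts held 14.7% ± 0.542, and those in introns of noncoding transcripts 10.8% ± 0.573. Hairpins outside all genes considered as hosts on their strand held 21.6% ± 0.392. Pseudogenes and several types of noncoding gene were not considered as hosts. The class also lists host transcripts and other names that are not hairpins, 6 in all, of which Mirlet7bhg, the let-7b host, was highest at 1157, 895, 1015 and 873 RPM.

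Markers of other cells were present at unequal levels. The stroma and vessel list summed to 13453, 14828, 18177 and 13443 RPM, and all 15 of its hairpins reached 10 RPM. Library 3 was the highest for 10 of the 15, while over all miRNA features of at least 10 RPM it was the highest for 194 of 765. Mir10b, Mir143 and Mir99a, described above as abundant, belong to this list, and whether their reads came from the oocyte or from attached stroma was not tested. The granulosa cell list, whose cells surround the oocyte, summed to 7118, 7702, 8243 and 6423 RPM over 13 hairpins, and Mir31 held 39.6% of it. Mir322 is counted in this list and in the miR-15/16 family. The granulosa hairpin Mir202 stood at 106.5, 135, 155 and 139 RPM.

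Blood and epithelial markers were lower. The leukocyte list summed to 252, 234, 235 and 233 RPM over 7 hairpins, none of which reached 100 RPM. Mir223, of myeloid cells, stood at 20.3, 18.5, 9.39 and 9.16 RPM. The erythrocyte list summed to 313 ± 65.2 RPM, but 69.4% of it was Mir451b. Mir3107, which overlaps the list member Mir486 on the other strand, is not counted in the list and stood at 305 RPM. Mir144, of red cells, stood at 3.33, 4.77, 0.494 and 1.11 RPM. The epithelial list summed to 697, 741, 752 and 992 RPM, led by Mir182 at 217 RPM and Mir96 at 203 RPM. Mir203, of the epidermis, had 46.3, 32.5, 27.7 and 186 RPM. Its mean of 73.1 RPM fell to 35.5 RPM without library 4. The miR-34 and miR-449 list summed to 1898 ± 145 RPM, 94.7% of it Mir34b.

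A list of hairpins known from tissues outside the ovary gave a level against which the others can be read. It summed to 1558, 1642, 1587 and 1961 RPM over 19 hairpins, with a median hairpin at 20.0 RPM, close to the median of 21.2 RPM over all miRNA features. The sum came mainly from Mir133b at 795 RPM, Mir124a-2, known from neurons, at 304 RPM, Mir216a, known from pancreas, at 223 RPM, and Mir208a, in an intron of the heart myosin gene Myh6, at 133 RPM. The liver hairpin Mir122a stood at 18.5, 17.4, 11.1 and 33.0 RPM and the islet hairpin Mir375 at 4.19, 6.00, 0.247 and 5.69 RPM. Hairpins of organs that were not sampled thus gave reads in all 4 libraries.

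The piRNA loci carry names of the form used for a catalogue of piRNA-producing transcripts of the mouse testis. The 250 gene-named features belong to 114 names, of which 83 have several listed forms, and 112 of the names are RefSeq genes. The highest, pi-D10Wsu102e.2, had 6669, 8222, 9792 and 7737 RPM and ranked first in every library. The other form, pi-D10Wsu102e.1, had 23.6, 24.6, 23.5 and 29.3 RPM, a ratio of 321 between the means. Next came the forms pi-Lpp.1 at 5684, 5288, 5500 and 5143 RPM and pi-Lpp.2 at 5613, 5233, 5497 and 5118 RPM, named after a LIM domain protein of cell adhesion. Their means were 5404 and 5365 RPM, and the first was slightly above the second in each library. pi-Wdfy3.2, named after an autophagy adaptor, had 4559, 4043, 4325 and 3945 RPM, with no overlap with its neighbours in rank. The first 4 ranks were held by the same features in all 4 libraries.

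Lower ranks changed places. pi-Fam53b.1 at 3459 ± 237 RPM (SD, n = 4), pi-Zyg11b.1 at 3333 ± 363 RPM, pi-Igsf9b.2 at 3250 ± 415 RPM and pi-Igsf9b.3 at 3085 ± 420 RPM overlapped in range. pi-Arhgap20.1 and pi-Arhgap20.2 stood at 2505 and 2479 RPM, and library 1 was the lowest for both. pi-Dnmt3a.2, named after a de novo DNA methyltransferase needed for oocyte imprints, had 1892, 1766, 1985 and 1644 RPM. pi-Tet3.2, named after the enzyme that oxidises methylcytosine in the zygote, had 1631, 1647, 1593 and 1566 RPM and one of the lowest CVs of the class, 2.27%. The first of these was picked out after its value was seen. Reads of such a locus can also be fragments of the mRNA of its gene, which the table does not separate.

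The forms of a name mostly split into near-equal and far-apart sets. Among the 83 gene names with several forms, the highest form was less than 1.1 times the lowest in 33 and more than 2 times in 30. pi-Ankrd11.1 and pi-Ankrd11.2, named after a chromatin regulator, stood at 1817 and 1821 RPM, while pi-Exoc8.2 stood at 2403 RPM and pi-Exoc8.1 at 16.4 RPM. Of 70 band names with several forms, 66 had a highest form of at least 10 RPM. Among these 66, the counts were 20 and 29. Where each name is counted once, at its highest form, 13 gene names and 18 band names held 50% of their class. Near-equal forms cannot be taken as separate measurements.

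Band-named loci were lower and more even. The first, 2-qE5-4.1, had 1511, 1566, 1708 and 1556 RPM and held 3.26% ± 0.0470 (SD, n = 4) of the class. 3-qA2-617.2 and 3-qA2-617.1 had means of 1423 and 1420 RPM, and both were highest in library 3, at 1739 and 1764 RPM, where 3-qA2-617.1 ranked first. 7-qD1-19431.2 and 7-qD1-9417.1 stood at 1240 and 1233 RPM, highest in library 1 for both. The forms 12-qE-23911.2 and 12-qE-23911.1 stood at 1121 and 1088 RPM with CVs of 2.93% and 2.41%. With each of the 100 names counted once, the 10 names on chromosome 7 held 13.3% of the class. The 8 names on chromosome 13 held 12.2% and the 11 on chromosome 10 held 10.5%.

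Among tRNAs, 4 anticodons held 79.1% of the reads, and their balance moved between libraries. AlaAGC summed to 31923, 27660, 27369 and 21951 RPM, and chr13.trna71-AlaAGC alone had a mean of 20711 RPM, 76.1% of that sum. A second locus, chr4.trna641-AlaAGC, had 6328, 5988, 5866 and 4408 RPM, while the median of the 19 AlaAGC loci was 5.18 RPM. GlyGCC summed to 13752, 11271, 8577 and 16473 RPM. Library 4 was the highest in GlyGCC and the lowest in AlaAGC. In GlyGCC the reads lay on many loci, with a median locus at 1050 RPM and the highest at 1060 RPM. The lowest, chr4.trna1308-GlyGCC, stood at 40.2 RPM. Of its 14 loci 13 were highest in library 4, against 111 of 235 over all tRNA loci of at least 10 RPM. Some tRNA genes of one anticodon share their sequence. The sequences were not compared here, so the 14 loci cannot be taken as independent measurements.

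MetCAT summed to 7951, 9755, 8814 and 9422 RPM, led by chr15.trna913-MetCAT at 3188, 3744, 3401 and 3345 RPM, one of the steadiest abundant tRNA loci with a CV of 6.85%. GluCTC summed to 5175, 5589, 5961 and 7682 RPM, highest in library 4. AspGTC summed to 924, 2056, 1725 and 2138 RPM, lowest in library 1. GlyCCC came next at 1174 ± 321 RPM, with 78.6% on chr3.trna282-GlyCCC, and moved like GlyGCC in being highest in library 4 and lowest in library 3. By amino acid, Ala held 41.5% ± 5.78 (SD, n = 4) of the tRNA reads, Gly 19.8% ± 4.60, Met 13.0% ± 1.46 and Glu 8.96% ± 1.63. At the other end Trp summed to 14.4 RPM over 8 loci and Tyr to 104 RPM over 10 loci. The 57 CysGCA loci, the most numerous anticodon, had a median of 1.11 RPM, and 86.3% of their reads lay on chr6.trna1015-CysGCA. Over all tRNA loci of at least 10 RPM, 111 of 235 were highest in library 4.

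The rRNA class was steady in its long forms and less so in its short ones. The 45S feature, the precursor that contains 18S, 5.8S and 28S, had 330540, 346587, 341678 and 345182 RPM, or 66.9% ± 0.559 (SD, n = 4) of rRNA reads. The ratio of 28S to 18S reads was 1.96, 1.93, 1.88 and 1.92. 5.8S had 3873, 4286, 4072 and 4906 RPM, highest in library 4, and 5S, which is transcribed apart from the others, had 2633, 2131, 2122 and 2464 RPM, highest in library 1. The CV was 10.4% for 5.8S and 10.8% for 5S, against 2.13% for 45S, 1.52% for 28S and 2.46% for 18S. Since 45S contains the sequences of 18S, 5.8S and 28S, the assignment of a read between them depends on the alignment.

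Spread between libraries was wider for miRNA features and tRNA loci than for piRNA loci at matched levels. Between 100 and 1000 RPM the median CV was 15.0% for 182 miRNA features, 9.00% for 138 gene-named piRNA loci, 11.0% for 108 band-named loci and 18.6% for 45 tRNA loci. Counting error alone gave medians of 2.88%, 2.28%, 2.56% and 2.07% in these sets, a small part of the spread. Above 1000 RPM the medians were 13.2% for 32 miRNA features, 8.15% for 30 gene-named piRNA loci and 26.2% for 14 tRNA loci, most of the last being the GlyGCC loci that move together. Spearman correlations between libraries were taken across features with a mean of at least 10 RPM, and hence not over independent replicates. These features were not matched by level, and 551 of 765 miRNA features but 70 of 238 gene-named piRNA loci lay below 100 RPM. The correlations lay between 0.895 and 0.937 for miRNA and between 0.935 and 0.949 for tRNA. For piRNA they lay between 0.987 and 0.993 in gene-named loci and between 0.977 and 0.988 in band-named loci.

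**Figure D5:**
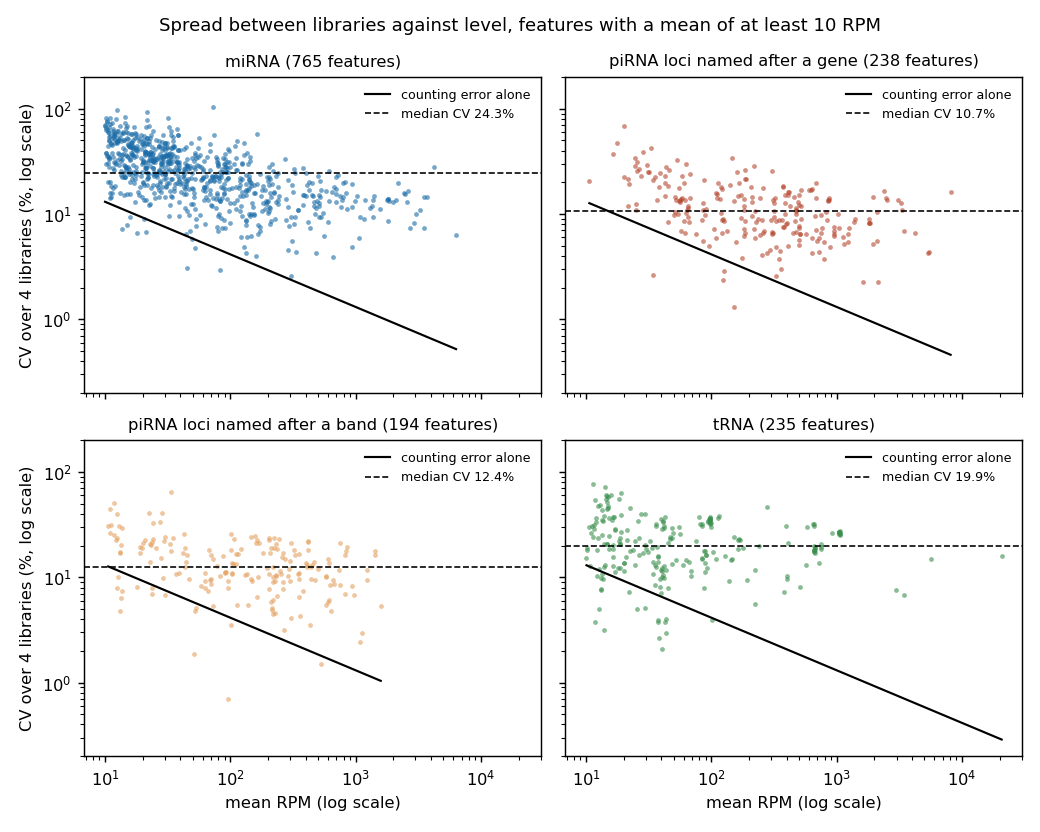
CV over 4 libraries (%, log scale) against mean RPM (log scale) for each feature with a mean of at least 10 RPM, in 4 classes, with the CV that counting error alone gives (solid line) and the class median (dashed line). The medians are 24.3% for miRNA, 10.7% and 12.4% for gene-named and band-named piRNA loci and 19.9% for tRNA.

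Among features with a mean of at least 100 RPM, the steadiest miRNA hairpins were Mir3107 with a CV of 2.58%, where counting error alone gives 2.37%, Mir328 with 3.92% and Mir103-2 with 3.99%. The most variable were Mir1982, in an exon of the polyamine regulator gene Oaz1, with 303, 101, 136 and 112 RPM, Mir21a, in an exon of Vmp1 and known from growing and inflamed tissue, with 66.7, 65.7, 147 and 175 RPM, and Mir7036b, in an exon of Add1, with 216, 106, 104 and 84.2 RPM. Library 1 stood above the others for Mir1982 and Mir7036b, and libraries 3 and 4 above libraries 1 and 2 for Mir21a. The steadiest gene-named piRNA loci were pi-Igf2bp1.1 with 153, 151, 151 and 155 RPM, pi-Kcng3.1 and pi-Tet3.2. The CV of pi-Igf2bp1.1 was 1.32%, below the 3.35% that counting error alone gives. The most variable were pi-Ing5.2 with 140, 163, 199 and 80.6 RPM, pi-Atxn1l.1 with 300, 222, 212 and 146 RPM and pi-Ing5.3 with 169, 203, 239 and 126 RPM, each lowest in library 4. Among band-named loci 13-qB1-1517.1 was steadiest at 529 ± 8.02 RPM (SD, n = 4), and 1-qE3-706.1 had the widest spread at 101 ± 25.9 RPM. Among tRNA loci chr13.trna983-ThrAGT was steadiest at 101 ± 3.97 RPM, and chr17.trna993-ArgCCG most variable with 463, 211, 244 and 184 RPM. The CVs of 13-qB1-1517.1 and chr13.trna983-ThrAGT, 1.52% and 3.95%, were also below their counting errors of 1.80% and 4.12%. A CV below counting error does not set a locus apart as steady.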

How the data were processed

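The deposited table gives RPM, in which each library is scaled to the same number of mapped reads, and the authors raised each value by 1, as read from the values. Alignment used Bowtie2 on mm10, per the submitters' processing notes; its version and the treatment of multi-mapping reads are not given in the sources used here. The offset of 1 was subtracted, and every value (100%) then came out, to within 0.01 reads, as a whole number of reads times what 1 read is worth in its library, which gave the mapped reads. The recovered reads served for depth, detection at 10 reads, and counting error. The 8 columns of other groups were not used.

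CV and SD refer to 4 libraries, and CVs are summarised over features with a mean of at least 10 RPM. Spread beyond counting error is the CV with the Poisson part removed, and log2 values are of RPM + 1. No group was compared. The test run was Dixon's ratio for a single outlying library, on 187 values. Members, lists and naming rules were chosen with earlier results of these data known. Named are the 10 highest features of each class except rRNA, all rRNA forms, the 3 highest and 3 lowest CVs among features of at least 100 RPM per class, up to 4 members of each list, the tRNA isotypes and the 5 highest anticodons. Other named features, mostly neighbours, copies and sequence examples, were chosen after their values were seen. Positions come from GENCODE M21, sequences from RefSeq, matched by symbol for 918 hairpins. Scripts ran in Python 3.11.15 with numpy 2.4.6, pandas 2.3.3, scipy 1.17.1 and matplotlib 3.10.9, and the spread estimates were tested on simulated data. Alternatives were other filters, pseudocounts and scalings, collapsed copies and leaving out each library.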

Additional observations from a re-analysis of the deposited data

Results flagged for a closer look

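Of 187 values checked over the 4 libraries, 12 had a single library far from the other 3, which were close together, by Dixon's ratio. For values not chosen by their spread, chance alone gives about 1 in 20 such values. Some of the values checked were named for a wide or narrow spread in these libraries, and that rate does not hold for them. Mir1982, Mir7036b, 5-qF-4633.1, chr17.trna112-GlyCCC and chr6.trna317-GlyCCC, flagged below, were named for a wide spread. No cause was tested for any of them.

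Library 4 was the high one for 4 values. Mir203 had 186 RPM there against 27.7 to 46.3 RPM in the others. Mir133b had 967 RPM against 731 to 743 RPM. The tRNA loci chr17.trna112-GlyCCC and chr6.trna317-GlyCCC had 174 and 183 RPM, against 87.0 to 96.9 RPM and 89.4 to 98.2 RPM, and they share an anticodon.

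Library 1 was the high one for 5 values. Mir1982 had 303 RPM against 101 to 136 RPM and Mir7036b 216 RPM against 84.2 to 105.8 RPM. The piRNA locus 5-qF-4633.1 had 201.1 RPM against 127 to 133 RPM. The summed level of the leukocyte list was 252 RPM against 233 to 235 RPM, and that of the Arg tRNA isotype 1393 RPM against 1237 to 1245 RPM.

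Of the others, Mir341 had 553 RPM in library 2 against 351 to 357 RPM, the miR-103 and miR-107 sum was low in library 2 at 344 RPM against 396 to 404 RPM, and Mir143 was high in library 3 at 3483 RPM against 2838 to 2907 RPM.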

How the results depend on the processing

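No paired analysis was possible because 1 group was described, its library numbers only name the samples, and no test between groups was run. The summed levels of all 20 lists and the levels of all 135 named features moved by less than 1 SD between libraries under median-of-ratios scaling. The scaling factors lay between 0.998 and 1.012, so that scaling could hardly move a mean and is a weak check. Leaving out a library cannot move a mean of 4 by 1 SD, so those means are no check of stability.

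Of the class values under settings that kept all libraries, 42 stayed the same and 43 moved. A count moved if it changed by more than 1.5 times, and a share if it changed by at least the SD between libraries. A median CV, log2 SD or spread beyond counting error was held against the SD of its leave-one-out values. A median correlation was held against the SD over pairs of libraries. Thinning to the depth of library 3 moved no count of detected features by 1.5 times. Values over classes are given in the order miRNA, gene-named piRNA, band-named piRNA, tRNA, rRNA. As shares of mapped reads the classes held 14.9%, 13.1%, 4.86%, 6.93% and 50.9%. With rRNA left out the first 4 held 37.5%, 32.9%, 12.2% and 17.5%. With piRNA forms of a name counted once, a choice added after seeing the data, the classes held 17.6%, 10.0%, 3.86%, 8.21% and 60.3%. With its copies left as listed, miRNA thus passed the piRNA loci together. With a threshold of 100 reads in every library, 465 miRNA and 147 tRNA features were detected. With copies collapsed, the 10 most abundant names held 28.8% of miRNA and 89.2% of tRNA reads, and 2 anticodons held 50% of tRNA reads. With forms collapsed, also added later, 13 gene and 18 band names held 50%, and the 10 most abundant 43.6% and 33.8%.

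The median CV depended on the filter. At a mean of at least 1 RPM it was 30.5% for miRNA, 13.7% for band-named piRNA and 26.9% for tRNA, with no filter 31.7%, 13.7% and 28.2%, and at 100 RPM 14.5% for miRNA, 8.79% for gene-named and 11.0% for band-named piRNA. Spread beyond counting error at 100 RPM was 14.4%, 8.46% and 10.6% for these 3. For rRNA the median CV was 2.02% under median-of-ratios scaling and 1.89% scaled within the class. The median SD of log2 values was 0.31 for miRNA and 0.25 for tRNA at a pseudocount of 5 RPM, and 0.41 and 0.34 with no filter. The median Spearman correlation with no filter was 0.932 for miRNA and 0.952 for tRNA.

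Without each library in turn, the median CV ran from 21.2% to 24.0% for miRNA, 9.31% to 10.7% and 10.1% to 12.8% for gene-named and band-named piRNA, 17.5% to 19.9% for tRNA and 2.38% to 2.61% for rRNA. The median SD of log2 values ran from 0.30 to 0.35, 0.13 to 0.15, 0.14 to 0.18, 0.25 to 0.28 and, for rRNA, 0.0345 to 0.0379. Spread beyond counting error ran from 19.7% to 23.2%, 8.51% to 10.2%, 9.59% to 11.7% and 16.6% to 19.3% in the first 4. The number of tRNA loci that held 50% of the reads ran from 4 to 7. Detection of scarce features is limited by library 3, the shallowest.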
